A study of Mus musculus with 24 samples.

Results

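Exc-Strip2 is 1 of 6 excitatory cell types that the authors named in single-nucleus data of the mouse amygdala, and its members are the columns of the RNA and ATAC count tables that carry this name. It holds 475 of 40767 nuclei, of which 156 of 21648 were profiled for RNA and 319 of 19119 for accessible chromatin (ATAC). The libraries came from adult male mice of the inbred strains DBA and BL6, aged 10 to 16 weeks, with no other treatment or allele, and a library pooled tissue of about 2 animals. There were 2 libraries per strain and assay, numbered 2 and 3 in the tables. RNA nuclei were sorted to 75% with and 25% without the neuronal protein NeuN, whereas ATAC nuclei were sorted on a DNA dye alone. The other 5 excitatory types (Exc-Tafa1, Exc-Abi3bp, Exc-Vwa5b1, Exc-Ebf2 and Exc-Tfap2c), summed within each library, were what Exc-Strip2 was set against.

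Excitatory neurons of the amygdala release glutamate, which vesicular glutamate transporters load into synaptic vesicles, and they differ between amygdalar nuclei in the transcription factors, receptors and adhesion molecules they make. Strip2, which names this type, encodes a protein of the striatin-interacting phosphatase and kinase complexes. ATAC counts transposase insertions, which gather at open promoters and enhancers.

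The type was unevenly spread over the libraries. RNA libraries held 1 Exc-Strip2 nucleus in DBA library 2, 77 in DBA library 3, 75 in BL6 library 2 and 3 in BL6 library 3. ATAC libraries held 13, 99, 147 and 60 in the same order. As a share of excitatory nuclei this was 0.175% (exact binomial 95% interval 0.00442 to 0.968) in DBA library 2, 3.80% (3.01 to 4.73) in DBA library 3, 3.40% (2.69 to 4.25) in BL6 library 2 and 0.331% (0.0684 to 0.966) in BL6 library 3 for RNA. The libraries with many such nuclei therefore carried the same numbers in both assays, DBA 3 and BL6 2, although the labels do not tie an RNA library to an ATAC library. For ATAC the shares were 0.703% (0.375 to 1.2) and 4.27% (3.48 to 5.17) in DBA libraries 2 and 3, against 6.29% (5.34 to 7.35) and 1.64% (1.25 to 2.10) in BL6 libraries 2 and 3. Intervals cover counting error only. The strains overlapped: the mean RNA share was 1.99% ± 2.56 in DBA and 1.87% ± 2.17 in BL6 (SD, n = 2 each; two-sided exact permutation p = 1), and the mean ATAC share was 2.49% ± 2.52 in DBA and 3.97% ± 3.29 in BL6 (exact permutation p = 0.667). With 2 libraries a strain no such test can reach p under 0.05.

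**Figure D1:**
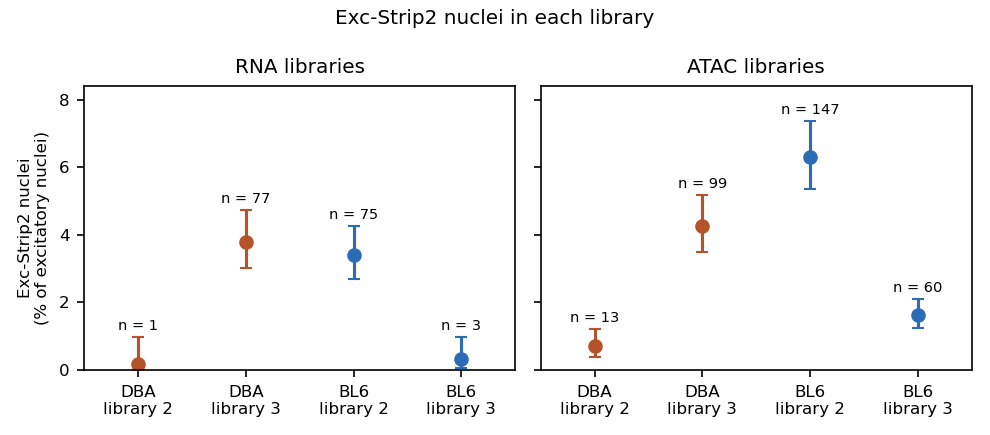
Share of excitatory nuclei that were Exc-Strip2 in each library, with DBA left of BL6; points are single libraries, bars are exact binomial 95% intervals and n is the number of Exc-Strip2 nuclei. DBA library 3 and BL6 library 2 had the higher shares in both assays.

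The Exc-Strip2 columns held 16382 RNA counts in DBA library 2, 919383 in DBA library 3, 993306 in BL6 library 2 and 41827 in BL6 library 3. Their ATAC totals were 271022, 1638244, 3048090 and 865669 in the same order. RNA levels are therefore given for DBA library 3 and BL6 library 2, as counts scaled to the total of the column (CPM), and the strain difference in RNA is not described. A gene was called higher or lower in RNA when log2(CPM + 1) differed by at least 2-fold in both of these libraries and the higher side had 10 or more counts in each. No p is given for RNA, because the authors made the types from such profiles and each strain gives 1 filled library.

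The 3 marker genes were present as the label says. Strip2 (chr6:29916976-29959681) stood at 188 CPM in DBA library 3 and 141 in BL6 library 2 in Exc-Strip2 (exact Poisson 95% intervals 161 to 218 and 119 to 166), against 4.87 and 6.29 CPM in the other excitatory types. No other excitatory type passed 9.78 CPM. Strip2 was not limited to these cells, since the inhibitory type Inh-Drd2 had 96.6 CPM in DBA library 3 and 137 in BL6 library 2, and the column of endothelial and mural cells had 123 CPM in BL6 library 2. Slc17a7, the vesicular glutamate transporter VGLUT1, had 323 and 250 CPM in Exc-Strip2, against 159 and 115 CPM in the other excitatory types. Exc-Tafa1 alone lay above it, at 361 and 261 CPM. Camk2a, a kinase subunit abundant in excitatory neurons, had 1032 and 838 CPM in Exc-Strip2, against 572 and 537 CPM, which is higher than in each of the other excitatory types but short of 2-fold.

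Exc-Strip2 also held RNA of Slc17a6, the transporter VGLUT2, at 50.0 and 44.3 CPM. The other excitatory types together had 83.1 and 73.4 CPM, and Exc-Tafa1, the type with the most Slc17a7, had 11.7 and 13.3 CPM. Exc-Strip2 thus combined Slc17a7 near the level of Exc-Tafa1 with more Slc17a6 than that type. Exc-Ebf2 held both as well, with 250 and 179 CPM of Slc17a7 and 72.2 and 49.8 CPM of Slc17a6. Gad1, an enzyme of GABA synthesis, had 1 and 4 counts in DBA library 3 and BL6 library 2.

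Sim1 was the gene with the strongest RNA contrast by the rule used, which ranks genes by the smaller of the 2 library ratios. It encodes a basic helix-loop-helix PAS transcription factor, known in mouse from hypothalamic paraventricular neurons and from the nucleus of the lateral olfactory tract. Its level was 535 CPM in DBA library 3 (exact Poisson interval 489 to 585) and 671 CPM in BL6 library 2 (621 to 724) in Exc-Strip2, against 6.33 and 8.66 CPM in the other excitatory types. The log2 ratios of CPM + 1 were 6.19 and 6.12. Among all 22 cell types of the tables the next highest columns were Inh-Lypd6b at 13.7 CPM in DBA library 3 and Exc-Vwa5b1 at 21.5 CPM in BL6 library 2. Unlike Strip2, Sim1 therefore had no second type near its level. The few nuclei of the other libraries, which did not enter the call, held 6 Sim1 counts in the single nucleus of DBA library 2 (366 CPM, interval 134 to 797) and 12 in the 3 nuclei of BL6 library 3 (287 CPM, 148 to 501), against 11.4 and 5.14 CPM in the other excitatory types of those libraries.

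Over the whole transcriptome, 369 of 18014 genes were called higher (2.05%) and 1422 lower (7.89%) in Exc-Strip2. Of these, 320 lay above each other excitatory type in both libraries and 585 lay below each. How many of all genes tested did so was not counted. The median log2 ratio of all genes tested was -0.17, so lower calls outnumbered higher ones around a median below 0. Both counts depend on the cutoffs: with DBA library 3 left out, 584 genes passed higher and 2659 lower, with BL6 library 2 left out 648 and 3565, and with 5 CPM added in place of 1 CPM 300 and 603.

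After Sim1, the leading genes by this rule included further regulators. Dach2, a transcriptional cofactor of the dachshund family, had 264 and 319 CPM in Exc-Strip2, against 6.33 and 7.34 CPM in the other excitatory types. Its relative Dach1 had 618 and 821 CPM, against 81.7 and 115 CPM. Zfp536, a zinc finger repressor, had 377 and 399 CPM, against 41.0 and 56.3 CPM, and was higher still in Inh-Lamp5 in DBA library 3 (1719 CPM) and in oligodendrocytes (NN-ODC) in BL6 library 2 (1714 CPM). Sox2ot, a long noncoding RNA that overlaps Sox2, had 268 and 496 CPM, against 28.0 and 50.6 CPM, and oligodendrocyte precursors (NN-OPC) had more, 2609 and 2953 CPM. Counts of Sox2ot and Sox2 may be split between the genes.

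Genes of the cell surface and matrix were also among these 20. Fras1, an extracellular matrix protein, reached 853 and 975 CPM in Exc-Strip2, against 73.9 and 114 CPM. Fbn2, a fibrillin, had 125 and 155 CPM, against 15.1 and 13.9 CPM. The highest of the other excitatory types in Fbn2 were Exc-Ebf2, at 67.4 and 89.3 CPM, and Exc-Tfap2c, at 32.45 and 91.9 CPM. Antxr2, a receptor for matrix collagen and anthrax toxin, had 84.8 and 154 CPM, against 4.92 and 5.81 CPM. Cav1, the coat protein of caveolae, had 59.8 and 73.5 CPM, against 0.535 and 0.561 CPM. Acvrl1, a type I receptor for bone morphogenetic proteins, had 35.9 and 25.2 CPM, against 0.876 and 0.962 CPM. Cav1 and Acvrl1 are best known from endothelium, and the vascular list in these columns is given below.

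Other genes of the 20 act at synapses or in signalling. Synpr, a synaptic vesicle protein, had 412 and 689 CPM in Exc-Strip2, against 49.0 and 101 CPM, and the inhibitory type Inh-Htr3a had 1286 and 1517 CPM. Frmpd1, a scaffold protein of G protein signalling, had 173 and 118 CPM, against 2.58 and 2.69 CPM, while astrocytes had similar levels, 166 and 159.5 CPM. Cbln2 and C1ql1 encode secreted synapse organizers. Cbln2 had 59.8 and 42.3 CPM, against 1.95 and 1.04 CPM, and C1ql1 had 32.6 and 34.2 CPM, against 1.31 and 1.28 CPM, below the 108 and 99.5 CPM of NN-OPC. Rgs13, Rxfp2, Muc19, Dact1 and Ppfibp2 completed the 20, with 15.2 to 38.3 CPM in Exc-Strip2 and under 3 CPM in the other excitatory types together. Single types could be higher, such as Exc-Tfap2c with 8.85 CPM of Ppfibp2 in DBA library 3. Exc-Ebf2 had 7.655 CPM of Dact1 in BL6 library 2. Antxr2, Fbn2, Acvrl1, Ppfibp2 and Rxfp2 also had a type outside the excitatory ones above Exc-Strip2 in at least 1 library. In the sparse columns, 15 of the 20 lay above the other excitatory types in DBA library 2 and 15 of 20 in BL6 library 3, where 20.4% and 28.0% of all genes tested did.

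**Figure D2:**
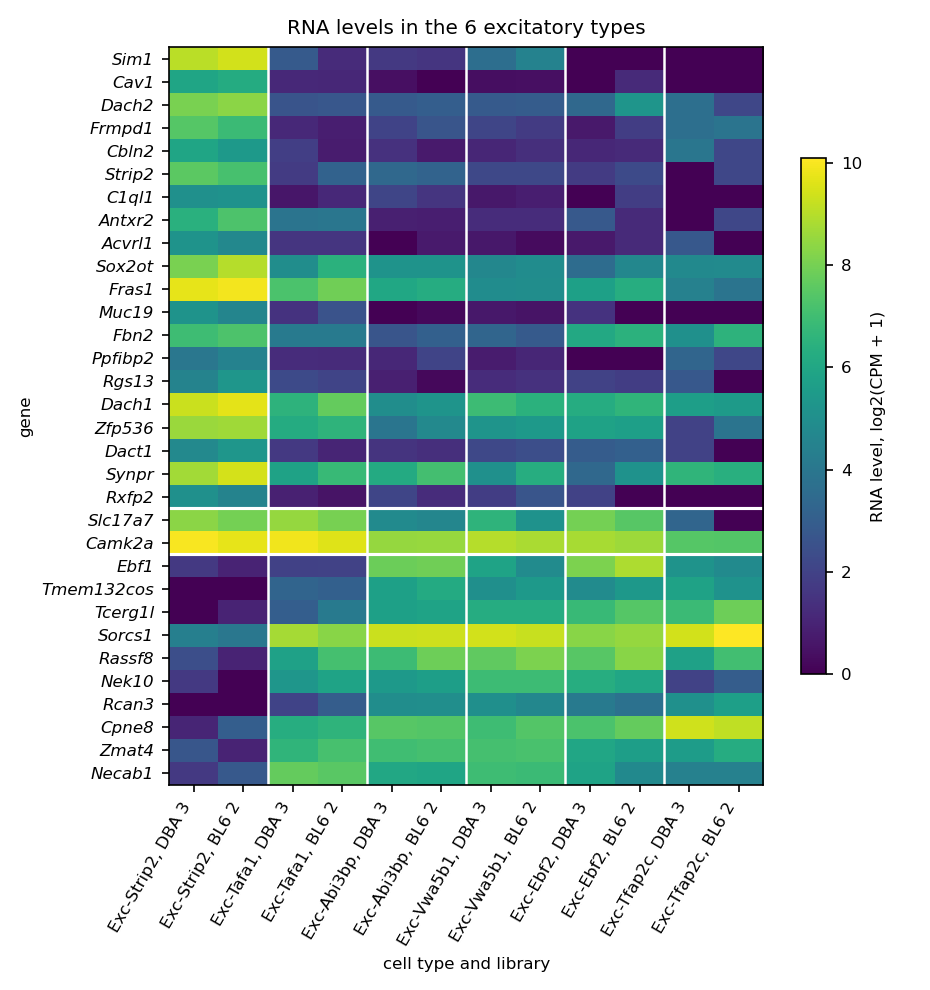
RNA level, as log2(CPM + 1), of the 20 genes named higher, the remaining 2 markers and the 10 genes named lower (rows, top to bottom) in the 6 excitatory types, each in DBA library 3 and BL6 library 2 (columns, Exc-Strip2 at the left). Sim1 stood at 535 and 671 CPM in Exc-Strip2 and at no more than 21.5 CPM elsewhere in the plot.

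The 10 genes named lower had few counts in Exc-Strip2. Ebf1, a helix-loop-helix transcription factor, had 2 counts in DBA library 3 and 1 in BL6 library 2 (2.18 and 1.01 CPM). The other excitatory types together had 109 and 86.7 CPM. Exc-Tafa1 was nearly as low in Ebf1, at 2.873 and 2.996 CPM, whereas each of the rest had at least 27.24 CPM in both libraries. Tmem132cos, whose gene overlaps Tmem132c so that reads may be split, had 0 counts in both libraries, against 31.7 and 37.1 CPM. Rcan3, an inhibitor of calcineurin, had 0 counts too, against 22.2 and 19.6 CPM. Sorcs1, a sorting receptor, kept 18 and 15 counts (19.6 and 15.1 CPM), against 565 and 510 CPM. Tcerg1l, Rassf8, Nek10, Cpne8, Zmat4 and Necab1 had 0 to 7 counts a library in Exc-Strip2, against 53.6 to 213 CPM in the other excitatory types together. By the rule each single type lay above Exc-Strip2, but some were also low. Exc-Tfap2c had 2.95 and 6.81 CPM of Nek10, beside 2.175 and 0 in Exc-Strip2. Exc-Tafa1 had 7.003 and 16.94 CPM of Tcerg1l and 3.053 and 6.798 CPM of Rcan3. In the single nucleus of DBA library 2 all 10 had 0 counts, and in the 3 nuclei of BL6 library 3 Rassf8 had 1 count and the other 9 had 0. Zeros were common there: of 18014 genes tested, 13204 had 0 counts in DBA library 2 and 10178 in BL6 library 3.

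Of 57 transcription factor genes in the list, 6 were called higher (10.5%) and 30 lower (52.6%), beside 2.05% and 7.89% of all genes tested, among which lower calls also outnumbered higher ones. The list had a median log2 ratio of -1.63 (-1.29 with genes at 0 counts set to a floor of 3 counts), beside -0.17 (-0.12) over all genes tested. Pou3f1, a POU factor, had 67.4 and 37.2 CPM in Exc-Strip2, against 1.56 and 1.96 CPM in the other excitatory types together. The highest of them was Exc-Tfap2c, at 56.0 and 74.9 CPM. Zeb2 had 1139 and 1163 CPM, against 191 and 191 CPM, and Lmo3 had 755 and 639 CPM, against 193 and 164 CPM. Bcl11b, also known as Ctip2, had 229.5 and 195 CPM, against 75.6 and 73.7 CPM. Bhlhe22 was also called higher. On the lower side, Meis1 had 0 and 4 counts and Meis2 6 and 27, against 139 and 119 CPM and 340 and 287 CPM. Ebf2 and Lhx9 had 0 counts in both libraries, and Foxp2, Tshz2 and Nfib were among the rest called lower. Members of a list that lie outside the ranking by size were named after their values were seen.

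Receptors for neuromodulators changed in both directions. Of 42 tested, 7 were called higher (16.7%) and 11 lower (26.2%), beside 2.05% and 7.89% of all genes tested (median log2 ratio -0.42). Cnr1, the cannabinoid receptor CB1, had 224 and 151 CPM in Exc-Strip2, against 30.5 and 27.0 CPM. Mc4r, the melanocortin receptor of feeding circuits, had 27.2 and 13.1 CPM, against 3.31 and 2.33 CPM. Chrm2, a muscarinic receptor, had 174 and 182 CPM, against 68.3 and 43.0 CPM, and Adra1a, Adrb1, Htr1b and Nr3c2 were also higher. The serotonin receptor Htr2c had 44.6 and 27.2 CPM, against 449 and 446 CPM, and Htr4, Htr7, Oprd1, Oprk1, Npy2r and Cckbr were also among those called lower.

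Glutamate receptor genes were called lower or not at all: 0 of 24 were higher and 8 lower (33.3%; median -0.56). Of all genes tested 2.05% were higher and 7.89% lower. Grik1, a kainate receptor subunit, had 19.6 and 15.1 CPM, against 346 and 318 CPM. Grm8, a presynaptic metabotropic receptor, had 20.7 and 22.2 CPM, against 332 and 389 CPM. Grik3, Grik4, Grin2d and Grid1 were also among those called lower. The AMPA subunit gene Gria2 did not pass, at 2481 and 2083 CPM, against 1698 and 1594 CPM. Of 14 genes of GABA receptors none was called in either direction (median -0.35).

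Among 33 potassium channel genes 6 were higher (18.2%) and 4 lower (12.1%; median -0.11), beside 2.05% and 7.89% of all genes tested. Among 24 calcium, sodium and HCN channel genes 2 were higher and 2 lower (median 0.23), a share of 8.33% each way, and the lower share is near the 7.89% of all genes. Kcnd3, a subunit of A-type channels, had 959 and 706 CPM in Exc-Strip2, against 264 and 289 CPM. Kcnd2, Kcna1, Kcnh1, Kcnh5 and Kcnk2 were the other potassium channel genes called higher. Kcnb2 had 55.5 and 87.6 CPM, against 675 and 764 CPM. Cacna2d3 had 704 and 712 CPM, against 228 and 242 CPM, whereas its relative Cacna2d2 had 2 and 0 counts, against 36.7 and 32.8 CPM. The hyperpolarization-activated channel gene Hcn4 had 18.5 and 24.2 CPM, against 6.96 and 5.97 CPM.

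Genes of axon guidance and adhesion were called in both directions, beside 2.05% higher and 7.89% lower over all genes tested. In the guidance list 5 of 40 were higher and 12 lower (median -0.41). Sema6d, a transmembrane semaphorin, had 2612 and 2277 CPM in Exc-Strip2, against 374 and 361 CPM, and the ligand gene Slit2 had 657 and 458 CPM, against 209 and 207 CPM. Efna5 had 3.26 and 8.05 CPM, against 149 and 148 CPM, and Unc5d 65.3 and 154 CPM, against 1099 and 1215 CPM. Of 21 cadherins 2 were higher and 7 lower (median -0.65). Pcdh10 had 794 and 654 CPM, against 137 and 125 CPM, and Cdh18 had 58.7 and 68.5 CPM, against 722 and 706 CPM. In the synaptic adhesion list 3 of 35 were higher and 8 lower (median -0.05), with Cntnap2 at 416 and 347 CPM, against 1783 and 2356 CPM.

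Of 24 neuropeptide and secretory genes 1 was called higher, 8 lower and the rest neither, beside 2.05% higher and 7.89% lower over all genes (median -0.64, or -0.43 with zeros at the floor). The one called higher, the granin Scg2, had 320 and 289 CPM, against 127 and 113 CPM. Among 15 immediate-early genes Nr4a1 alone was called, at 75.1 and 76.5 CPM, against 31.7 and 30.0 CPM (list median 0.33). Among 15 genes of the striatin complexes Strip2 alone was called (median -0.12).

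Lists named for brain regions did not single out a match. No list was made for the nucleus of the lateral olfactory tract, so a match to it could not be seen. Their counts stand beside 2.05% higher and 7.89% lower over all genes tested. The basolateral amygdala list had 2 of 13 genes higher (Lypd1 and Lmo3) and 6 lower, and the cortical amygdala and olfactory list had 1 of 10 higher (Zfp536) and 4 lower. The list for medial amygdala and hypothalamus had 1 of 10 higher, Sim1, and 7 lower. Cortical layer 5 genes counted 2 of 12 higher (Bcl11b and Pou3f1) and 7 lower, and layer 6 genes 1 of 8 higher (Rprm) and 4 lower. The claustrum and endopiriform list had 2 of 10 higher (Synpr and Slc30a3) and 2 lower. These lists share members with each other.

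Markers of other cells were given no call in most cases, and their part in the results was not tested. Summed over its list, astrocyte markers made 262 and 301 CPM in Exc-Strip2, against 194 and 223 CPM in the other excitatory types, and most of this was Slc1a2 (246 and 257 CPM), while Gjb6 had 0 counts. Microglia markers made 179 and 193 CPM, against 199 and 256 CPM. P2ry12, which lies within the neuronal gene Med12l, made up 125 and 115 CPM of these, and Tmem119 had 0 counts. Vascular markers made 11.96 and 62.4 CPM, against 10.6 and 62.5 CPM, with Cldn5 at 1 and 0 counts and Col1a1, Col1a2 and Dcn at 0, and nearly all in BL6 library 2 was Tek. Oligodendrocyte markers made 72.9 and 134 CPM, against 99.6 and 143 CPM, and those of their precursors 33.7 and 51.3 CPM, against 13.5 and 13.3 CPM. In the precursor list Vcan was called higher, at 25 and 43 counts, while Pdgfra had 2 and 2. Inhibitory markers made 89.2 and 111 CPM, against 104 and 119 CPM, with Dlx2, Dlx6 and Drd2 at 0.

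By the correlation of log2 levels over 13247 genes, Exc-Tafa1 was the type most like Exc-Strip2, with Pearson r of 0.896 in DBA library 3 and 0.914 in BL6 library 2. Exc-Tfap2c was the least like it among excitatory types, at 0.768 and 0.801. Exc-Tfap2c had 31 and 24 nuclei, the fewest of these types, and the part of depth in its r was not tested. Across the 12 columns of excitatory types in these libraries, Dgkh, a diacylglycerol kinase, followed Strip2 most closely of 14010 genes ranked (r = 0.960), and C1ql1, Pde4b, Sh3d19, Maml3, Spred1, Cav1, Tmem65 and Hacd4 were also among the 10 closest (0.909 to 0.956). Dgkh had 497 and 480 CPM in Exc-Strip2, against 141 and 167 CPM. Such an r over 12 columns rests mainly on the 2 columns of Exc-Strip2.

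In ATAC, Exc-Strip2 was compared with the other excitatory types in all 4 libraries by edgeR's quasi-likelihood test with the library as a block. ATAC nuclei carry the authors' type names, and how these were assigned was not examined here. The names may rest on these same profiles, so an adjusted p (Benjamini-Hochberg) only sets the difference within libraries against its spread over them. It is no independent evidence of the type. Of 230627 peaks tested 32225 passed an adjusted p of 0.05 (14%), 15374 higher (6.67%) and 16851 lower (7.31%), and the median log2 change was -0.30. Of the higher peaks 7033 lay above every other excitatory type in all 4 libraries, as did 8502 of all 230627 peaks tested. Of the lower ones 1906 lay below every other excitatory type in all 4 libraries, and 3480 had 0 counts in every Exc-Strip2 column. Peaks within 1 kb of a RefSeq start were 7.49% of those tested, 2.82% of the higher and 5.17% of the lower. The count rests on the filled libraries: 7280 peaks passed without BL6 library 2, 10756 without DBA library 3 and 16872 without BL6 library 3, but 37769 without DBA library 2, which has 13 Exc-Strip2 nuclei. The balance of directions turned with the setting: RLE size factors gave 17969 higher and 28082 lower, DESeq2 12668 and 9312, and the fit without BL6 library 3 10764 and 6108, without DBA library 3 7509 and 3247, and without BL6 library 2 5182 and 2098.

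The peak with the largest rise among the better covered ones lay between genes at chr18:86578019-86578373 (mm10, coordinates as in the deposited table), 71.3 kb from Neto1. It had 22.1 and 23.2 CPM in DBA libraries 2 and 3 and 27.2 and 25.4 CPM in BL6 libraries 2 and 3 in Exc-Strip2, against 0.117 to 0.231 CPM in the other excitatory types (log2 change 7.00 ± 0.41 SE, edgeR adjusted p = 1.57e-59). The groups did not overlap. Next came chr1:81859421-81859732 (log2 change 6.64, 373 kb from Irs1), chr5:47261844-47262430 (6.50, 719 kb from Slit2) and chr4:52803796-52804437 (6.39). Of the 8 peaks named, all but 1, in Tecta, lay outside genes. Here and for the other peaks, genes with provisional symbols were left out, and the nearest gene given is a protein-coding one. The 8 named lower peaks had 0 counts in all 4 Exc-Strip2 columns and 3.54 to 7.57 CPM in the other excitatory types, which makes them at least 8.34-fold to 12.3-fold lower when 0 is read as 3 counts over the 4 columns. They lay in Rgs17, Tnc and Dlg2 and outside genes, nearest to Adgrl3, Daw1, Dock5, Zim1 and Armc3.

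Against Exc-Tafa1 alone, the type nearest in RNA, 33499 of 184233 peaks passed the same test (18.2%), with 15407 higher (8.36%) and 18092 lower (9.82%). With RLE size factors in place of TMM the split was 13415 higher and 26695 lower. Without BL6 library 2 the count was 10612, and without DBA library 3 it was 18466. The peaks nearest Neto1 and Slit2 led this comparison too, with log2 changes of 6.90 and 6.39.

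To set ATAC beside RNA, the ATAC counts of a gene were summed over the peaks that lay at most 2 kb from its start or its end. Whether RNA profiles entered the naming of the ATAC nuclei was not tested, so RNA and ATAC may not be independent here. Of 31253 genes 4486 passed the edgeR test with adjusted p under 0.05 (14.4%), 2412 higher (7.72%) and 2074 lower (6.64%). Among 318 genes called higher in RNA 150 were higher at their ends (47.2%) and 5 lower, and among 1186 called lower in RNA 368 were lower (31.0%) and 25 higher. Of the 15228 genes tested in both assays 5.56% were higher and 5.86% lower. Without BL6 library 2 these counts fell to 80 of 318 higher and 165 of 1183 lower. Without DBA library 3 the lower count was 247 of 1190. No more than 4 genes called higher in RNA were lower at their ends in any of the fits that left out 1 library. DESeq2 with all libraries gave 83 of 318 higher and 168 of 1186 lower.

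**Figure D3:**
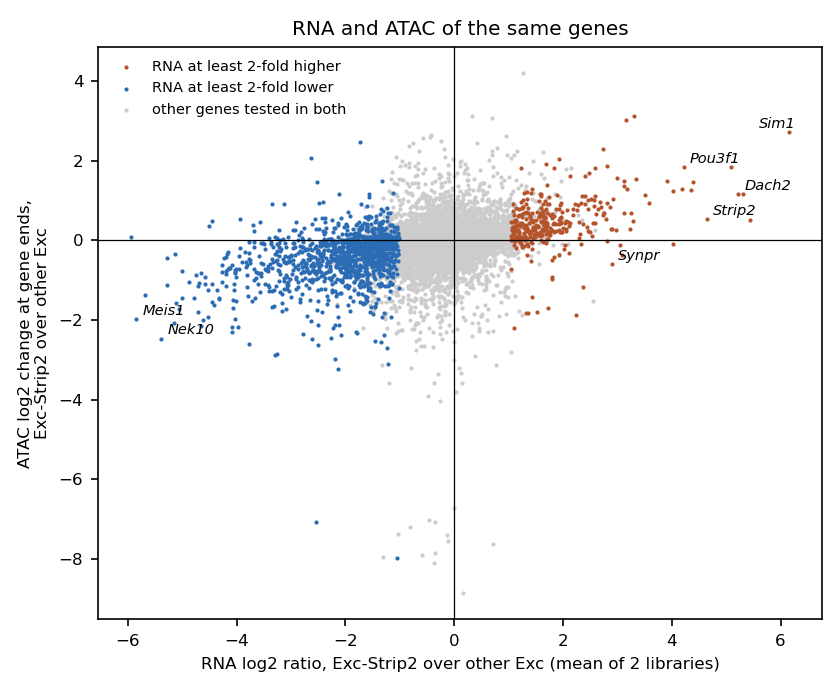
RNA log2 ratio (mean of DBA library 3 and BL6 library 2, x axis) and ATAC log2 change at gene ends (y axis), Exc-Strip2 over the other excitatory types, for the 15228 genes tested in both; colours mark genes called at least 2-fold higher or lower in RNA. Of the genes higher in RNA 150 of 318 were called higher at their ends, Sim1 at a log2 change of 2.73, and points near -8 are genes with almost no ATAC counts in Exc-Strip2.

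Of the 20 genes named higher in RNA, Muc19 had no peak at its ends and 15 of the other 19 were called higher, none lower. The calls of 11 held in every alternative run: Sim1, Frmpd1, Cbln2, C1ql1, Antxr2, Acvrl1, Fbn2, Rgs13, Dach1, Zfp536 and Dact1. The ends of Sim1 had 55.3 and 40.9 CPM in DBA libraries 2 and 3 and 39.4 and 46.2 CPM in BL6 libraries 2 and 3 in Exc-Strip2, against 6.29, 7.30, 6.83 and 7.26 CPM in the other excitatory types (log2 change 2.73 ± 0.18 SE, edgeR adjusted p = 1.2e-47). Rgs13 had a log2 change of 1.54 and Cbln2 of 1.48, though the ends of Cbln2 had 14.8 CPM in DBA library 2, below the 18.8 CPM of the other excitatory types there. The ends of Strip2 had 29.5, 33.6, 20.01 and 39.3 CPM in DBA 2, DBA 3, BL6 2 and BL6 3, against 19.5, 20.7, 21.8 and 20.9 CPM (log2 change 0.54 ± 0.15 SE, edgeR adjusted p = 0.0049). BL6 library 2 went the other way, and the call was lost without DBA library 3 (adjusted p = 0.208) and without BL6 library 3 (adjusted p = 0.119). The calls of Cav1 and Fras1 were lost without BL6 library 2 (adjusted p = 0.275 and 0.406), as was that of Dach2 (adjusted p = 0.125), and that of Cav1 also without DBA library 3 (adjusted p = 0.0641). DESeq2 with all libraries lost the calls of Strip2 (DESeq2 adjusted p = 0.0983), Cav1 (0.13) and Fras1 (0.125). Sox2ot, Ppfibp2, Synpr and Rxfp2 did not pass, and Synpr had a log2 change of -0.60.

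Of the 10 genes named lower 8 were called lower at their ends and none higher. Nek10 had the largest fall among them, with 3.69 and 2.44 CPM in DBA libraries 2 and 3 and 2.62 and 5.78 CPM in BL6 libraries 2 and 3, against 16.6 to 21.5 CPM (log2 change -2.47 ± 0.29 SE, edgeR adjusted p = 2.05e-15). The calls of Sorcs1, Rassf8, Nek10, Rcan3, Cpne8 and Necab1 held in every alternative. Zmat4 was lost without DBA library 3 (adjusted p = 0.293) and Tcerg1l without BL6 library 2 (adjusted p = 0.0622). The call of Zmat4 was also lost by DESeq2 (DESeq2 adjusted p = 0.134). Ebf1, nearly absent from RNA, did not pass at its ends (log2 change -0.43).

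At the ends of 55 transcription factor genes 8 were called higher and 18 lower, beside 7.72% and 6.64% of all genes (median log2 change -0.26, beside -0.02 over all genes). Pou3f1 had 29.5, 42.7, 50.2 and 58.9 CPM in DBA 2, DBA 3, BL6 2 and BL6 3, against 16.9, 12.5, 14.4 and 16.8 CPM (log2 change 1.84 ± 0.14 SE, edgeR adjusted p = 5.09e-37). Tbr1, Zeb2, Neurod1, Neurod2, Neurod6, Bhlhe22 and Lmo3 were the others called higher, and the call of Lmo3 was lost without BL6 library 2 (adjusted p = 0.346) or BL6 library 3 (adjusted p = 0.32). Meis1 (log2 change -1.97), Meis2 (-1.62), Lhx9 (-1.97) and Tshz2 (-2.14) were among the lower. Without BL6 library 2 the list counted 7 higher and 13 lower. Among 46 neuromodulator receptor genes 11 were higher and 7 lower, or 7 and 3 without that library. Cnr1, Mc4r, Chrm2, Adra1a, Htr1b and Nr3c2 were higher in both assays, although the call of Nr3c2 was lost without BL6 library 2 (adjusted p = 0.957), and Oprd1 had the value -2.17 and Oprk1 -2.62 on the log2 scale. Of 15 immediate-early genes 4 (Fos, Egr1, Nr4a3 and Ier2) were higher at their ends, 1 without BL6 library 2 and 2 without DBA library 3, while their RNA was not called.

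The Sim1 locus was searched more widely, within 100 kb of the gene (chr10:50894698-50989156). Of 26 peaks tested there 14 were higher in Exc-Strip2 and 0 lower, against 6.67% and 7.31% of all peaks. Leaving out each library in turn gave 11 to 14 of 26. The peak over the annotated start of the gene, chr10:50893955-50895244, had 55.3, 39.7, 38.1 and 41.6 CPM in DBA 2, DBA 3, BL6 2 and BL6 3, against 5.43, 6.44, 5.73 and 6.37 CPM (log2 change 2.63 ± 0.26 SE, edgeR adjusted p = 4.93e-21). Upstream, chr10:50848740-50849057 had a log2 change of 4.16 ± 0.41 SE (adjusted p = 8.87e-22, edgeR), and beyond the far end of the gene chr10:51014976-51015810 had 3.79 ± 0.32 SE (adjusted p = 1.67e-28). The Strip2 locus gave another picture, with 1 of 36 peaks higher and 3 lower, with 0 higher when DBA library 3, BL6 library 2 or BL6 library 3 was left out and 3 higher without DBA library 2. Near Cbln2, the locus closest to the chr18 peak among the named genes, 9 of 10 peaks were higher, 4 without BL6 library 2. Over the loci of the 19 named higher genes with coordinates 149 of 681 peaks were higher (21.9%) and 19 lower, or 54 of 668 and 2 without BL6 library 2 and 76 of 711 and 2 without DBA library 3.

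**Figure D4:**
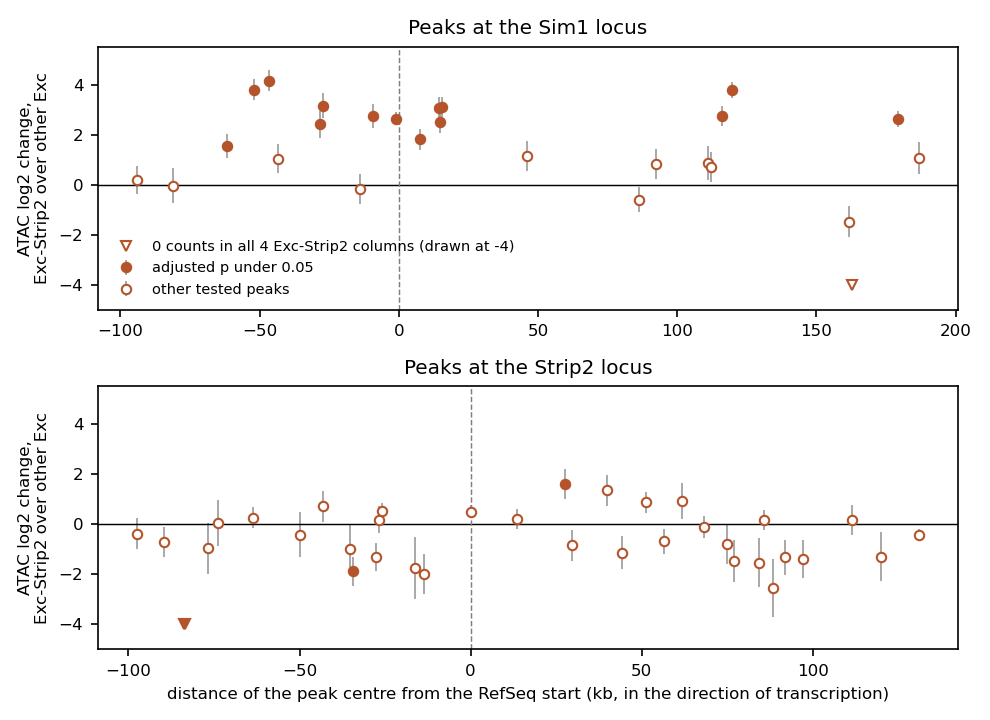
ATAC log2 change of each tested peak, Exc-Strip2 over the other excitatory types (y axis, bars are standard errors), by distance of its centre from the RefSeq start in kb (x axis), at Sim1 (upper panel) and Strip2 (lower panel); filled symbols have an adjusted p under 0.05. At Sim1 14 of 26 peaks were higher, at Strip2 1 of 36.

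The bases before the starts of 5 of these genes are shown to set the sequences of unlike promoters beside their peaks: Strip2, whose start peak did not pass, Dach2, Antxr2 and Rgs13, whose start peaks were higher, and Slc17a7, whose start peak did not pass either. They are from RefSeq on GRCm38.p6, read 5′ to 3′ on the gene's strand, and end at the base before the gene. Capitals mark matches, on either strand, to the TATA element TATAAA, the GC box GGGCGG, the E-boxes CACGTG and CATCTG, the CRE palindrome TGACGTCA and the AP-1 element TGANTCA.
Strip2: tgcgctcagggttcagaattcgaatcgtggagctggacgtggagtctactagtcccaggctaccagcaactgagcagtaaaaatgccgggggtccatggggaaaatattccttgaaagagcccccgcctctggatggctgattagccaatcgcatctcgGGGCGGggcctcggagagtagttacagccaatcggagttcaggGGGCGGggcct
Dach2: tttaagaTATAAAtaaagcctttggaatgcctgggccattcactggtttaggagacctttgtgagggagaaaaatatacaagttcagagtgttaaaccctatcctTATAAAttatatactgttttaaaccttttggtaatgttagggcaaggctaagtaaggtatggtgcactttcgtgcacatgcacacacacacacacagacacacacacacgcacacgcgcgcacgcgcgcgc
Antxr2: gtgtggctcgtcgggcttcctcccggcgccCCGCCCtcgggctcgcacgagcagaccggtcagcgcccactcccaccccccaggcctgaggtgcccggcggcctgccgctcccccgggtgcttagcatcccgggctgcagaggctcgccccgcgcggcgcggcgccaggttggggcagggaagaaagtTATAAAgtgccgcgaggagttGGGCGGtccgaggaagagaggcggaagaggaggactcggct
Rgs13: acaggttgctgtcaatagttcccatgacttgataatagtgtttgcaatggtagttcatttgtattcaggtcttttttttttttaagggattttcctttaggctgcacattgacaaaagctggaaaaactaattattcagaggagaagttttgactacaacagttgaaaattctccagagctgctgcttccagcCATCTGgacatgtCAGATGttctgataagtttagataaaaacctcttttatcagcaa
Slc17a7: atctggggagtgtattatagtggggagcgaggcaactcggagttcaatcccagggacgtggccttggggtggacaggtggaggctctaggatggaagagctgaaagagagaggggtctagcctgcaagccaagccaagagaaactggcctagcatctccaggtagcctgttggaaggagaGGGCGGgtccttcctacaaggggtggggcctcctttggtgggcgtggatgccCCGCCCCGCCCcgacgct

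Strip2 (chr6:29916763-29916975, plus strand) holds GGGCGG, as 32.7% of all 32851 starts in the RefSeq table do in their 250 bases, and so does Slc17a7 (chr7:45163671-45163920, plus strand). The start peaks of these had log2 changes of 0.49 ± 0.26 SE (edgeR adjusted p = 0.201) and 0.05 ± 0.31 SE (adjusted p = 0.936). Dach2 (chrX:113297260-113297495, plus strand) holds TATAAA, found in 12.4% of starts, and its start peak had a log2 change of 0.94 ± 0.34 SE (edgeR adjusted p = 0.0474). Antxr2 (chr5:98031018-98031267, minus strand) holds both motifs, with a log2 change of 1.37 ± 0.30 SE (adjusted p = 0.000135). Rgs13 (chr1:144177373-144177622, minus strand) has 36% G and C, holds the E-box CATCTG found in 14.4% of starts, and rose by 1.86 ± 0.32 SE (edgeR adjusted p = 5.89e-07). The GC share was 72.8% in Antxr2 and 43.2% in Dach2, so the promoters with higher peaks did not share a base composition. None of the 5 holds the E-box CACGTG (6.02% of all starts), the CRE palindrome (1.55%) or the AP-1 element (6.75%). A match marks letters and not a bound factor.

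DBA and BL6 were compared within Exc-Strip2 for ATAC only. Of 34105 peaks with enough counts 140 passed the edgeR quasi-likelihood test with Benjamini-Hochberg adjustment (0.41%), 60 higher in DBA (0.176%) and 80 lower (0.235%), and 2157 had an unadjusted p under 0.05. With library number as a replicate block 65 passed (32 higher and 33 lower), and with DESeq2 13 (10 higher and 3 lower). Without BL6 library 2 22 passed (17 and 5), without BL6 library 3 73 (36 and 37), without DBA library 2 302 (133 and 169) and without DBA library 3 24 (19 and 5), so the balance of directions was not stable. Of peaks tested 30.0% lay within 1 kb of a RefSeq start, against 6.67% of those higher and 11.3% of those lower in DBA. The counts were made on mm10, the genome of BL6, and the part of sequence differences between the strains in these counts was not tested.

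Of the named strain peaks, all 16 differed between the strains in the same direction in the other excitatory types. With DESeq2 several strain calls given below were lost: Alad (DESeq2 adjusted p = 0.305), Arhgef26 (0.89), Pdia4 (0.186) and Vps52 (0.236). Those of Pard3 (0.218), Cldn18 (0.368), Tfpi and the contig JH584295.1 (0.0599) were lost by DESeq2 as well. Without the filter on low counts, those of Alad (edgeR adjusted p = 0.0646) and Tfpi (0.947) were lost. At the start of Alad, an enzyme of haem synthesis, chr4:62519241-62520270 had 62.7 and 45.2 CPM in DBA libraries 2 and 3, against 11.5 and 17.3 CPM in BL6 libraries 2 and 3, within Exc-Strip2 (log2 change 1.87 ± 0.29 SE, edgeR adjusted p = 2.72e-05, and 0.678 without BL6 library 2). The other excitatory types had 53.8 and 49.1 CPM in DBA, against 17.1 and 17.8 CPM in BL6. The 2 peaks in Sfi1 (log2 changes 4.8 and 3.71) and those in Pisd-ps2 and near Ezh2, Csf2ra and Arhgef26 were higher in DBA in both, although the call near Arhgef26 was lost without BL6 library 2 (edgeR adjusted p = 0.0977). Sfi1 and Pisd-ps2 have near-identical copies in the mouse genome, so their counts are uncertain. Peaks on the unplaced contigs GL456216.1 and JH584304.1 had 0 counts in both DBA libraries, against 83.2 to 129 CPM in BL6 (at least 69.9-fold and 75.8-fold lower in DBA when 0 is read as 3 counts over its libraries). The contig JH584295.1 and peaks near Pdia4 and Vps52 were lower in DBA in both as well. Their calls were lost without DBA library 3 (edgeR adjusted p = 0.157, 0.206 and 0.136), and those near Pdia4 and Vps52 also without BL6 library 2 (0.999 and 0.538).

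Some of the named peaks had higher levels in Exc-Strip2 than in the other excitatory types, in 1 strain or in both. In Pard3, a polarity scaffold gene, chr8:127164787-127165329 had 0 counts in both DBA libraries, against 25.3 and 17.3 CPM in BL6 libraries 2 and 3 (at least 14.96-fold lower in DBA; edgeR adjusted p = 4.82e-07, and 0.999 without BL6 library 2 or 0.217 without DBA library 3). In the other excitatory types it had 0 CPM in DBA, against 0.469 and 0.398 CPM in BL6, and it was not among the peaks tested for interaction. In Macrod2, chr2:141875933-141877293 had 0 counts in DBA, against 31.5 and 37.0 CPM in BL6 within Exc-Strip2 (at least 20.8-fold lower; edgeR adjusted p = 1.29e-09), and 0 in DBA, against 8.05 and 7.65 CPM in BL6 in the other types. Near Tfpi, chr2:84487418-84488542 had 36.9 and 23.8 CPM in DBA, against 6.23 and 10.4 CPM in BL6 (log2 change 1.81, edgeR adjusted p = 0.00787), and 9.63 and 9.02 CPM in DBA, against 2.23 and 3.44 CPM in BL6 in the other types. The edgeR interaction term of this peak had an unadjusted p of 0.739. The strain call near Tfpi was lost without BL6 library 2 (adjusted p = 0.999), BL6 library 3 (0.141) or DBA library 3 (0.479), and under the replicate block (0.115). In Cldn18, chr9:99699587-99700340 had 0 and 0.61 CPM in DBA, against 21.3 and 19.6 CPM in BL6 (log2 change -5.13, edgeR adjusted p = 7.38e-06, and 0.999 without BL6 library 2 or 0.292 without DBA library 3), and 3.59 and 4.30 CPM in DBA, against 10.2 and 9.35 CPM in BL6 in the other types.

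**Figure D5:**
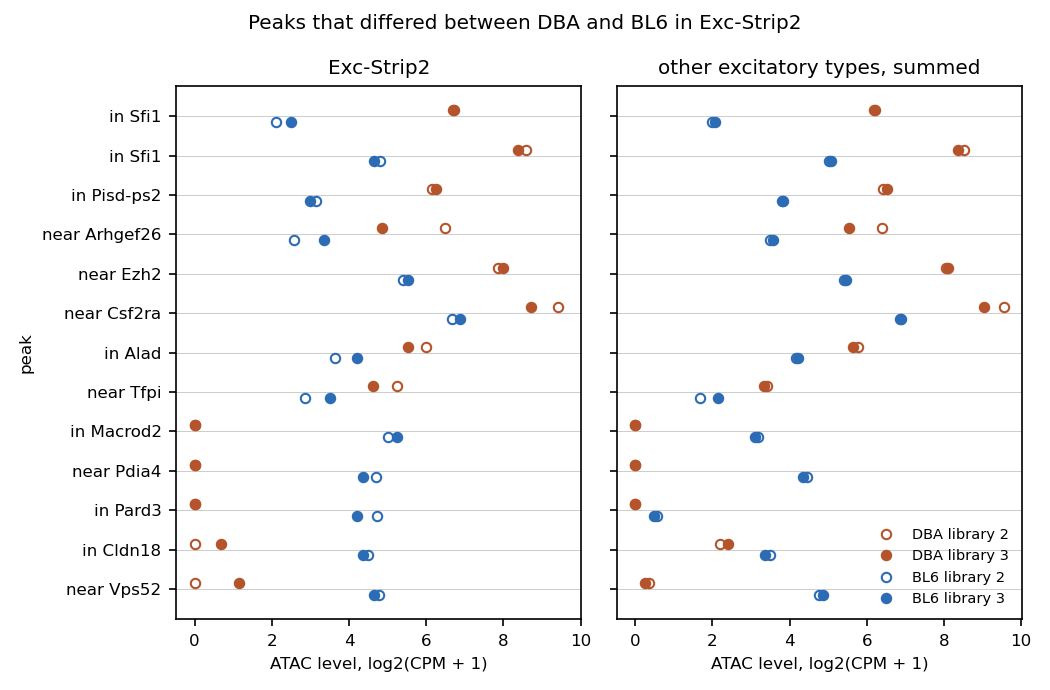
ATAC level, as log2(CPM + 1), of the named strain peaks on chromosomes (rows, labelled by the gene they lie in or near) in Exc-Strip2 (left) and in the other excitatory types summed (right); colours are strains and open and filled points are libraries 2 and 3. The Pard3 peak has 25.3 and 17.3 CPM in BL6 in Exc-Strip2 and under 0.5 CPM in the other types.

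Whether the strain difference of a peak in Exc-Strip2 differs from that in the other excitatory types was tested with an interaction term over 230627 peaks. By edgeR 0 passed (0%), 4126 had an unadjusted p under 0.05, and DESeq2 also called 0. The test made no call on simulated differences either, so this count does not show that the strains differ alike in both. The Cldn18 peak had an unadjusted interaction p of 0.00131 and an adjusted p of 1.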

How the data were processed

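The 4 RNA and 4 ATAC libraries of DBA and BL6 amygdala were used, and the 16 methylation samples were not analysed here. The authors deposited raw counts per gene (RNA) and per peak (ATAC), with 1 column for all nuclei of a type in a library, and a table of how many nuclei each column holds. Cell type names are the authors' own. Per the submitters' processing notes, Cell Ranger 6.0.2, Cell Ranger ATAC 2.0.0, Seurat 4.0.5 and the build mm10 were used, and the filters on nuclei, treatment of doublets, peak caller, the use of strand in counting and the unit counted in ATAC are not given in the sources used here. All columns of cell types were mapped and 0 were left unused. Titles number the libraries of a strain 1 and 2, whereas columns carry the numbers 2 and 3, so columns were tied to a strain and not to a sample, and libraries are named as in the tables.

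Libraries held 30693629 to 66304405 RNA and 66535381 to 86927891 ATAC counts. RNA was compared as log2(CPM + 1) within each library with at least 10 Exc-Strip2 nuclei, with no test. ATAC counts were tested with edgeR 4.0.16 under R 4.3.3 (robust quasi-likelihood, TMM, filterByExpr with a minimum count of 10, library as a block between types) and Benjamini-Hochberg adjustment over all peaks or genes, with DESeq2 1.42.0 as an alternative. The tests were checked on simulated data with 200 changed features. The peak test against the other excitatory types recovered 0% of 2-fold and 43% of 4-fold changes, and against Exc-Tafa1 9% and 46%. The gene-end test recovered 64% and 84%, the strain test 22% and 74% and the interaction test 0% and 0%. A peak that was not called may therefore still differ. Libraries are pools of animals, so the strain p-values rest on the spread between such pools. Those between types rest on how the difference within a library varies over the pools. Named genes were the 20 higher and 10 lower with the largest smaller-of-2-libraries ratio that also lay beyond every other excitatory type (provisional symbols left out), then up to 4 called members and the most abundant member of each of 29 lists. Named peaks were the 8 each way with the largest change above the median ATAC level. The members, lists and tests were chosen with earlier results of these data known. Gene positions are from RefSeq on GRCm38.p6, in which 25737 of 34039 RNA symbols were found. Some genes are not reported here.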

Additional observations from a re-analysis of the deposited data

How the results depend on the processing

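The number of peaks called between Exc-Strip2 and the other excitatory types ranged from 7280 to 37769 when 1 library was left out, beside 32225. Against Exc-Tafa1 it ranged from 10612 to 37836, with 18927 by DESeq2, beside 33499, and at gene ends from 1690 to 4722, with 1852 by DESeq2 and 9138 with a window of 10 kb, beside 4486. The strain count ranged from 22 to 302, beside 140, and was 65 without a filter on low counts, 13 by DESeq2, 85 against a 1.5-fold change and 65 with library number as the replicate block. The numbers are shared between strains, but the labels do not say whether same-numbered libraries are paired. The deviations of library 2 from library 3 in DBA and in BL6 had r = -0.047 over 34105 peaks. With 13 Exc-Strip2 nuclei in DBA library 2 this r cannot decide it. The interaction count was 0 to 1 over the libraries left out and 1 with RLE size factors, and a second block beside the library block was not run. In RNA 3243 and 4213 genes were called from 1 library alone, 2951 from all 4 summed and 903 with 5 CPM added, beside 1791. At gene ends the window of 10 kb turned 5 log2 changes around, to 0.42 for Rxfp2, 0.30 for Zmat4, 0.61 for Camk2a, 0.0536 for Sema5a and 0.15 for Nxph4. Of the other settings for named genes at ends 905 kept direction and side of the threshold, 84 lost the call and 22 gained it, and for named strain peaks 134 kept and 26 lost it. The causes were not tested beyond the fewer counts that a left-out library leaves. Depth is limited by 13 ATAC nuclei in DBA library 2 and by 1 and 3 RNA nuclei in DBA library 2 and BL6 library 3.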
